A study of Homo sapiens with 9 samples.

Results

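FAM83H-AS1 is known as a long non-coding RNA gene on chromosome 8 whose transcribed region overlaps FAM83H on the opposite strand. Its RNA was targeted with 2 different short hairpins in MDA-MB-468, a basal-like, triple-negative human breast cancer line known for an amplified EGFR gene and a deleted SMAD4 gene. The comparison described here sets the second hairpin against the first, gene by gene, over all genes that reached 1 FPKM in at least 3 of the 9 libraries. FPKM is a level, the reads of a gene corrected for its length and for sequencing depth. That rule kept 11875 of the 31004 genes in the deposited table. The rule used levels over all libraries and no difference between the hairpins.

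The groups were 3 libraries each of cells with shNC (the control hairpin, genotype labelled WT), with shFAM83H-AS1_1 (hairpin 1) and with shFAM83H-AS1_2 (hairpin 2). All 9 libraries, control included, came from cells that had been infected with lentivirus at a multiplicity of infection of 10 with the infection enhancer HiTransG P and selected with puromycin at 1 µg/mL into stable lines. The hairpins' sequences, and whether a line was a clone or a pool, are not in the labels. The labels give triplicates but do not say that they were separate cultures, so p-values measure the spread between these libraries, which may be technical. The control libraries serve below to tell which hairpin departed from control.

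A short hairpin RNA is cut by Dicer and its guide strand is loaded into an Argonaute protein, which cleaves transcripts that pair along the guide. The same guide can also lower transcripts that pair with its seed alone, so that 2 hairpins against 1 RNA share their intended target but not their other matches. Long-term selected lines can differ as well through the cells that happened to found them. Genes that separate the hairpins are therefore commonly read apart from genes that move with both.

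The labelled line was checked against its markers. All 13 of 13 markers listed for this basal breast epithelial line passed the filter, with KRT5, KRT8, KRT18, KRT19, EPCAM and EGFR among them. KRT8, KRT18 and KRT19 are simple epithelial keratins, so the list marks epithelium and not basal cells alone. Genes added after their values were seen were SMAD4, at 0.0338 FPKM or less in every library, and the oestrogen receptor ESR1, at 0.316 or less. Also low were the glycolysis gene ALDOA, at 0.321 or less, and the respiratory chain gene SDHA, at 0.421 or less. A value near 0 in these data therefore does not show that a gene is absent. ESR1 is 1 of 9 luminal hormone receptor markers, of which 5 passed the filter, with ERBB2 at 4.51 to 9.23 FPKM. EGFR was at 5.29 to 10.3 FPKM, with 57.8% of tested genes below its mean, so the gene known to be amplified did not stand out by its level. Of markers of other cell types, 1 of 9 fibroblast genes (COL1A1), 2 of 10 leukocyte genes (CD14 and NCAM1) and 1 of 7 endothelial genes (KDR) passed, and none of these 4 differed past the threshold between the hairpins. In such bulk libraries, fewer cells of a kind and less RNA per cell cannot be told apart. The depth was 15270673 to 18115070 reads per library. Replicate 3 of hairpin 1 stood apart from all others: it correlated at 0.950 and 0.941 with its replicates, where other pairs within a group reached 0.979 to 0.988, and held 10665 genes at 1 FPKM or more against 11064 to 11807 elsewhere. List medians and the single differences that it moved by over 1.5 times or across the threshold are also given without it. GC content also tracked the libraries differently, with Spearman correlations of gene deviation with GC from -0.60 to 0.58, and its part in the results was not tested beyond the corrected values given in the closing section.

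The target was measured first. FAM83H-AS1 (ENSG00000203499, named IQANK1 in the gene table, with FAM83H-AS1 as a RefSeq synonym, and annotated as protein-coding) had 17.9, 17.5 and 14.3 FPKM with the control hairpin, 7.37, 5.54 and 4.93 with hairpin 1 and 8.56, 7.92 and 7.46 with hairpin 2. Both hairpins lay below every control library, at 35.9% of the control mean with hairpin 1 and 48.2% with hairpin 2. The hairpin 2 mean was 134% of the hairpin 1 mean, and no library of one hairpin overlapped the other. On log2(FPKM + 1), the scale of every difference below, hairpin 2 minus hairpin 1 was 0.38 (SE 0.15, 95% confidence interval 0.04 to 0.73), with an adjusted p of 0.593 by limma with Benjamini-Hochberg adjustment. The exact two-sided permutation test gave p = 0.1, the smallest that 3 libraries against 3 allow. FAM83H, which overlaps the target on the other strand over 4095 bases, had 47.8, 55.8 and 40.4 FPKM in the control, 51.9, 40.4 and 41.1 with hairpin 1 and 47.6, 56.6 and 45.9 with hairpin 2, and its groups overlapped. The strand setting of the counting is not given in the sources used here, so reads of the overlap cannot be assigned to one gene or the other.

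Between the hairpins, 11 genes passed an adjusted p of 0.05, which is 0.0926% of the 11875 tested. With hairpin 2, 10 of them (0.0842%) were higher and 1 (0.00842%) was lower. One of the 11, a Y RNA, entered the test only through its hairpin 2 libraries and so had to differ. The calls were the cancer-testis gene MAGEB2, the splicing factor PRPF38A, the aldo-keto reductases AKR1C1 and AKR1C2, the chemokine CXCL1, the adhesion molecule ICAM1, the transcriptional inhibitor ID4, the ribosome biogenesis factor UTP18, the pseudogene BTNL10P, a Y RNA and, lower, the epithelial transcription factor SPDEF. At an unadjusted p under 0.05 there were 950 genes, 8.0% of those tested, 515 higher (4.34%) and 435 lower (3.66%) with hairpin 2. The 3 libraries of one hairpin did not overlap those of the other in 1426 genes, 12.0%, with hairpin 2 above in 6.13% and below in 5.88%. A difference of at least 1 on the log2 scale in either direction was reached by 46 genes, 0.39%. The median difference over all genes was 0.063, and 60.6% of genes were higher with hairpin 2. All 11 calls were also made without replicate 3 of hairpin 1, where 17 genes passed. Without replicates 1, 2 or 3 of the control 5, 7 or 7 genes passed, without replicates 1 or 2 of hairpin 1 it was 6 or 10, and without replicates 1, 2 or 3 of hairpin 2 it was 4, 6 or 3. MAGEB2 and PRPF38A were called in every one of these 9 fits, as was the Y RNA.

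**Figure D1:**
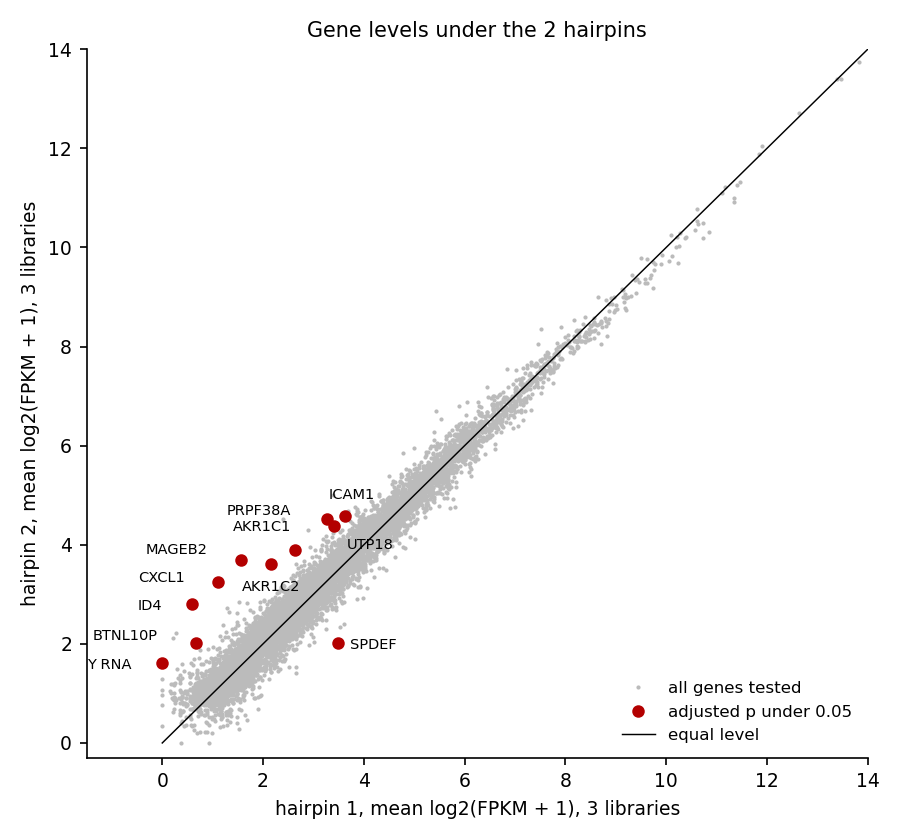
Mean log2(FPKM + 1) over 3 libraries with hairpin 1 (horizontal) and hairpin 2 (vertical) for the 11875 genes tested, in grey, with the 11 genes past the adjusted threshold in red and a line of equal level. Of the red points, 10 lie above the line and SPDEF lies below it.

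**Figure D2:**
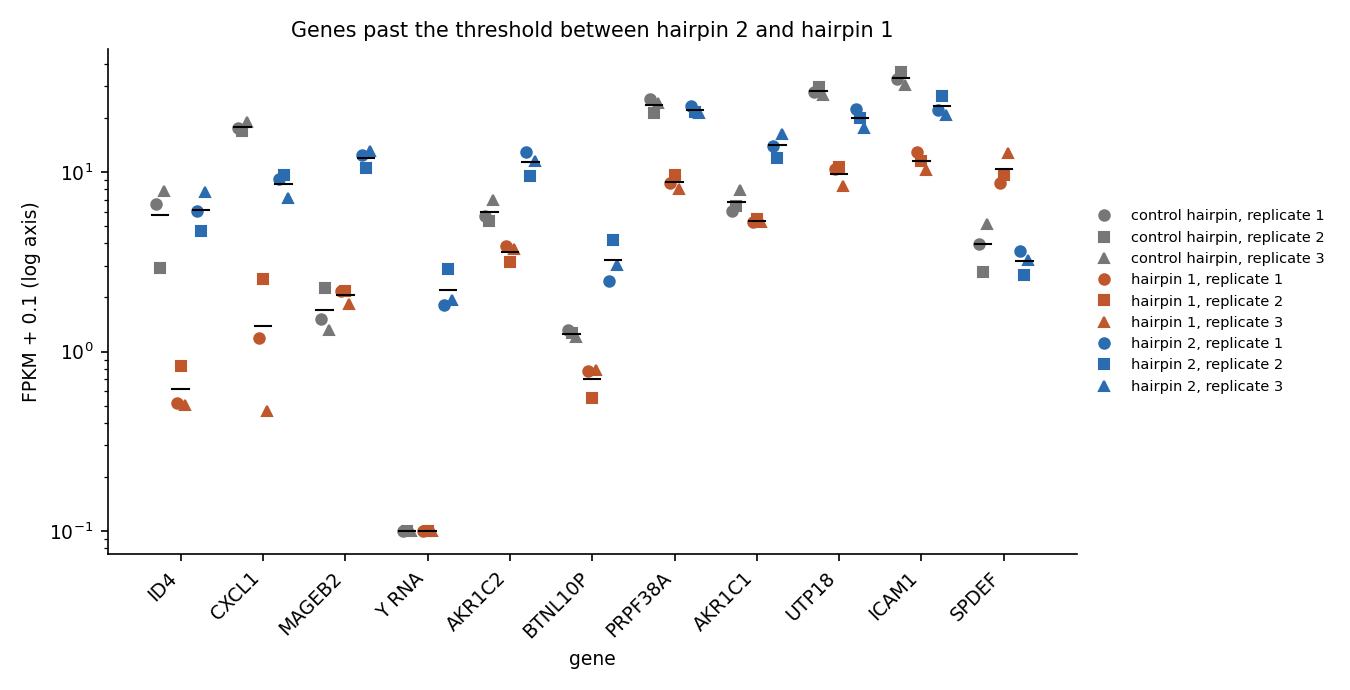
FPKM plus 0.1 on a log axis for the 11 genes past the threshold, in each of the 9 libraries; colours mark the group, symbols the replicate number and black bars the mean of 3 libraries. In every gene the hairpin 1 and hairpin 2 libraries are apart, while the control libraries lie near hairpin 2 (ID4, PRPF38A, SPDEF), near hairpin 1 (MAGEB2, AKR1C1, the Y RNA) or elsewhere.

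The place of the control was then read for each gene as the share of the hairpin 1 to hairpin 2 distance at which the control mean fell. A hairpin counted as near control when the control lay within 25% of that distance from it. Of the 950 genes at an unadjusted p under 0.05, 37.3% had hairpin 1 apart and hairpin 2 near control, 35.8% had both hairpins on the same side of control with hairpin 1 further, 17.6% had the control between, 6.74% had hairpin 2 apart and hairpin 1 near control, and 2.63% had hairpin 2 further on the same side. Over all genes tested, most of which have a small distance between the hairpins, these shares were 17.2%, 51.4%, 10.1%, 5.73% and 15.5%. Both sets of shares include replicate 3 of hairpin 1, which stood apart, and are not given without it. Of the 11 called genes, 3 had hairpin 1 apart, 3 had hairpin 1 further, 2 had the control between, 3 had hairpin 2 apart and 0 had hairpin 2 further, and these counts were the same without replicate 3 of hairpin 1.

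Genes at which hairpin 2 stood apart come first, together with AKR1C2 and BTNL10P, for which the control lay between the hairpins. MAGEB2 (X, 30215563 to 30220089, plus strand, hg38) belongs to the MAGE family, which is normally expressed in germ cells and is reactivated in tumours. It had 1.42, 2.16 and 1.22 FPKM with the control hairpin, 2.07, 2.06 and 1.75 with hairpin 1, and 12.3, 10.4 and 13.1 with hairpin 2. Every hairpin 2 library lay above all 6 others. Behind these values were 34 to 60 reads in the control and hairpin 1 libraries and 297 to 342 with hairpin 2. The ratio of means was 6.08, and the log2 difference was 2.12 (SE 0.16, interval 1.76 to 2.48; limma adjusted p 0.00149), past the threshold in all 9 fits that left out 1 library.

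The neighbours of MAGEB2 on the X chromosome had another order of groups. MAGEB1 had 2.65, 2.51 and 2.96 FPKM with hairpin 2 and 2.93, 2.99 and 2.91 with the control, against 1.60, 1.48 and 0.476 with hairpin 1 (difference 0.80, adjusted p 0.327, not past the threshold). MAGEB4 had 6.52, 6.19 and 5.62 with hairpin 2, 5.19, 5.69 and 6.59 with the control and 3.64, 2.32 and 1.11 with hairpin 1. In both, hairpin 2 was at the control level and hairpin 1 below it. MAGEB2 shares no 50-base stretch of transcript with either. Of the 12 tested cancer-testis genes, 1 was called higher and 0 lower, against 0.0842% and 0.00842% of all genes. At an unadjusted p under 0.05, 3 were higher and 0 lower, against 4.34% and 3.66%. Their median difference was 0.13, and 0.08 without replicate 3 of hairpin 1.

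AKR1C1 and AKR1C2, neighbours on chromosome 10, encode aldo-keto reductases that reduce steroids and reactive carbonyls, and in human cells are well-known targets of the oxidative stress factor NRF2. AKR1C1 (4963253 to 4983283, plus strand) had 5.94, 6.35 and 7.84 FPKM in the control, 5.17, 5.37 and 5.18 with hairpin 1 and 13.8, 11.8 and 16.3 with hairpin 2. AKR1C2 (4987400 to 5018031, minus strand) had 5.58, 5.25 and 6.85, then 3.75, 3.04 and 3.63, then 12.8, 9.44 and 11.4. Hairpin 2 was the highest group in both genes, and for AKR1C2 hairpin 1 was also below the control. The log2 difference was 1.253 for AKR1C1 (SE 0.15, interval 0.93 to 1.58; limma adjusted p 0.0145) and 1.45 for AKR1C2 (SE 0.15, interval 1.11 to 1.78; limma adjusted p 0.00679). AKR1C1 shares 28.3% of its 50-base transcript words with AKR1C2, and AKR1C2 shares 38.1% of its own with AKR1C1, so how the authors' counting split reads between them is uncertain. The third family member tested, AKR1C3, had 2.29, 2.47 and 6.46 FPKM with hairpin 1 and 3.56, 2.92 and 4.05 with hairpin 2, with overlapping libraries.

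The start regions of the pair are shown because the genes moved together and are near copies. They are RefSeq sequences of build GRCh38.p14, 250 bases before to 50 after the start that RefSeq's table uses, which for both genes lies inside the span given above from the deposited table, at chr10:4963165-4963464 on the plus strand for AKR1C1 and at chr10:5003808-5004107 on the minus strand for AKR1C2, with capitals at bases that differ or are extra in an alignment of the 2 windows.
AKR1C1: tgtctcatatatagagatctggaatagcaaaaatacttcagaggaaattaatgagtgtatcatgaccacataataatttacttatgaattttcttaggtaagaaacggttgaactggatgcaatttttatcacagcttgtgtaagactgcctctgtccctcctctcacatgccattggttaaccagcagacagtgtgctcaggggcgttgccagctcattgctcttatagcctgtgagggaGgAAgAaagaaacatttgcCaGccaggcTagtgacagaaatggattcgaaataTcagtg
AKR1C2: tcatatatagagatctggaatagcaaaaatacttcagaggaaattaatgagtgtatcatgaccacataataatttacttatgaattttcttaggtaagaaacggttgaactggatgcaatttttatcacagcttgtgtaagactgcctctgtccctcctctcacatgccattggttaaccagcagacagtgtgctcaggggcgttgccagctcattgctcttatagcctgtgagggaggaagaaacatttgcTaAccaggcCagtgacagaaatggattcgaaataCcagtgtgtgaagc
Over 296 aligned positions, 288 were identical (97.3%). The antioxidant response element core TGACNNNGC, searched on both strands, was in neither window. It was in 14.7% of the 12589 windows of tested genes. The 2 windows are short and near copies, so the search cannot tell whether such an element lies elsewhere, and nothing is read from it.

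The other 23 tested members of the NRF2 and aldo-keto reductase list contained no further call. Over all 25, 7 were higher at an unadjusted p under 0.05, against 4.34% of all genes, and 1 was lower, against 3.66%. OSGIN1, an oxidative stress response gene, had 1.79, 1.93 and 1.84 FPKM with hairpin 1 and 2.66, 3.34 and 2.87 with hairpin 2 (difference 0.47, limma adjusted p 0.407). The list's median difference was 0.14, and 0.09 without replicate 3 of hairpin 1, beside 0.063 over all genes. Among members named after their values were seen, HMOX1, haem oxygenase 1, had 7.89, 9.36 and 17.4 with hairpin 1 and 12.4, 19.1 and 27.2 with hairpin 2. The HMOX1 libraries of the hairpins overlapped, and the 17.4 was replicate 3 of hairpin 1. GSR, glutathione reductase, also named after its values were seen, was lower with hairpin 2, at 27.2, 23.0 and 22.4 against 33.6, 29.3 and 34.5.

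The Y RNA copy called here (ENSG00000199471, chromosome 1, minus strand, 101 bases) belongs to a family of small non-coding RNAs with many near-identical genomic copies. It held 3, 5 and 3 reads in the hairpin 2 libraries and 0 in the 6 others. It was the 1 gene called among the 8 that passed the filter only through the 3 libraries of hairpin 2, and neither its call nor its repeat in the fits that left out 1 library is independent of that filter. With so few reads on a short gene the value rests on single reads, and the count-based test on recovered reads did not call it (adjusted p 0.174). BTNL10P, a butyrophilin-like pseudogene, had 0.675, 0.453 and 0.684 FPKM with hairpin 1, 1.22, 1.16 and 1.10 with the control and 2.38, 4.08 and 2.94 with hairpin 2, from 6 to 53 reads a library. Its difference was 1.35 (SE 0.17, limma adjusted p 0.0237), and 2 of the 9 fits that left out 1 library called it.

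Genes at which hairpin 1 stood apart were PRPF38A, ID4 and SPDEF. PRPF38A (chromosome 1, 52404602 to 52420836), a component of the spliceosome needed before its catalytic activation, had 8.58, 9.48 and 7.94 FPKM with hairpin 1, against 23.4, 21.6 and 21.2 with hairpin 2 and 21.2 to 25.6 in the control. The hairpin 2 and control libraries overlapped, and all lay above those of hairpin 1. The difference between hairpins was 1.26 (SE 0.12, interval 0.99 to 1.52; limma adjusted p 0.00536). Each of the 9 fits that left out 1 library called it. Each hairpin 1 library held 714 to 965 reads of this gene, and the others 1821 to 2371.

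ID4, which binds basic helix-loop-helix transcription factors and blocks their DNA binding, and is expressed in basal mammary epithelium, had 0.414, 0.727 and 0.403 FPKM with hairpin 1 and 6.01, 4.57 and 7.68 with hairpin 2. The control libraries, at 6.50, 2.81 and 7.74, spread over a wider range that overlapped hairpin 2. The ratio of the hairpin means was 11.8 and the log2 difference 2.21 (SE 0.29, interval 1.56 to 2.86; limma adjusted p 0.027). It was called in 3 of the 9 fits that left out 1 library. The related ID2 had the opposite sign, with 15.1, 14.4 and 14.7 FPKM with hairpin 1 and 12.4, 9.76 and 9.33 with hairpin 2 (difference -0.47, limma adjusted p 0.439). ID4 was the only call among the 22 tested genes of TGF-beta signalling and the ID family. Their median difference was 0.00, and -0.03 without replicate 3 of hairpin 1.

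SPDEF (chromosome 6, 34537802 to 34556333, minus strand), an ETS factor of secretory and luminal epithelium, was the 1 gene called lower with hairpin 2. It had 8.61, 9.55 and 12.7 FPKM with hairpin 1, 3.55, 2.58 and 3.15 with hairpin 2 and 3.88, 2.67 and 5.01 in the control. Every hairpin 1 library was above all 6 others. The difference was -1.45 (SE 0.21, interval -1.91 to -0.998; limma adjusted p 0.0355), called in 3 of the 9 fits that left out 1 library.

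The genes next in line for lower levels with hairpin 2 did not pass the threshold, and in 5 of these 9 hairpin 2 was near control. They included DIRAS3, a RAS-related growth suppressor, with 8.49, 10.0 and 13.7 FPKM with hairpin 1, 3.99, 3.81 and 4.38 with hairpin 2 and 1.64, 3.42 and 2.97 in the control (difference -1.19, limma adjusted p 0.115). TNFSF10, the death ligand TRAIL, had 3.21, 5.58 and 8.01 with hairpin 1, 1.67, 1.09 and 2.41 with hairpin 2 and 0.830, 0.704 and 0.534 in the control (difference -1.24, limma adjusted p 0.213). In both, hairpin 1 was the highest group and hairpin 2 lay between it and the control. IRX2-DT (difference -0.96), the secreted protein CRISP3 (-1.12), MYEOV (-0.97), MAB21L4 (-0.92) and the mitochondrial enzyme OGDHL (-0.62) had hairpin 2 near control, and the desmosome-associated PERP (-0.67) and isocitrate dehydrogenase IDH1 (-0.57) had the control between the hairpins; their limma adjusted p ran from 0.09 for IRX2-DT to 0.213 for OGDHL and MYEOV. On the higher side, RFXANK, a subunit of the complex that activates MHC class II genes, had 21.1, 18.5 and 25.6 FPKM with hairpin 1 and 37.9, 45.6 and 39.6 with hairpin 2, with the control at 33.7, 33.0 and 35.0 (difference 0.89, limma adjusted p 0.054). Without replicate 3 of hairpin 1 RFXANK passed the threshold, at a difference of 1.01 and a limma adjusted p of 0.0114.

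CXCL1, ICAM1 and UTP18 were lower than control with both hairpins, and hairpin 1 lay further from it. NF-kB is a transcription factor family held in the cytoplasm by IkB proteins; inflammatory signals release it, and it then activates chemokines, adhesion molecules and its own inhibitors. CXCL1, a chemokine that attracts neutrophils, had 17.6, 16.8 and 19.0 FPKM in the control, 9.07, 9.49 and 7.04 with hairpin 2 and 1.09, 2.43 and 0.367 with hairpin 1. The 3 groups did not overlap. The hairpin 2 to hairpin 1 ratio of means was 6.59 and the log2 difference 2.15 (SE 0.28, interval 1.53 to 2.76; limma adjusted p 0.0258), called in 2 of the 9 fits that left out 1 library. ICAM1, the endothelial and epithelial ligand of leukocyte integrins, had 33.1, 35.9 and 30.4 in the control, 22.1, 26.4 and 20.8 with hairpin 2 and 12.8, 11.4 and 10.1 with hairpin 1. Its groups did not overlap either, and its difference was 0.95 (SE 0.13, interval 0.65 to 1.252; limma adjusted p 0.0355), called in 1 of the 9 fits.

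The start region of CXCL1 (RefSeq, GRCh38.p14, chr4:73869143-73869442, plus strand) is shown because CXCL1 has the largest difference of the list; capitals mark overlapping matches to the NF-kB consensus, one on each strand.
CXCL1: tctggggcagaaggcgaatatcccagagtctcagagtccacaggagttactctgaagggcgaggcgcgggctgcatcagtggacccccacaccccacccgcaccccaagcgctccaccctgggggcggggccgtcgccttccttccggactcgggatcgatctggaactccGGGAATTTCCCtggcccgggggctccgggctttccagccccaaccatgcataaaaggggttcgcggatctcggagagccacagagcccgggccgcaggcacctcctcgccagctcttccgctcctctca
The consensus, searched on both strands, was in 13.7% of the windows of tested genes and in 8 of the 16 available windows of the list. The list was drawn up as NF-kB targets and cytokines, so nothing about the hairpins is read from that share. Windows without a match included those of ICAM1, TNF, CXCL8, TNFAIP2 and SOCS3.

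By its median, the list of NF-kB targets and inflammatory cytokines had the same order, though not every member did. Of 33 genes listed, 30 were in the table and 20 passed the filter; those that did not include IL6, at 0.633 FPKM or less in every library. Of the 20, 2 were called higher with hairpin 2 and 0 lower, against 0.0842% and 0.00842% of all genes. At an unadjusted p under 0.05, 10 were higher and 0 lower, against 4.34% and 3.66%. In 11 members the libraries of the hairpins did not overlap, all higher with hairpin 2, against 6.13% of all genes. This list, like the others, was chosen with earlier results of these data known, so its counts are not independent of them. The median difference was 0.47, and 0.38 without replicate 3 of hairpin 1, with 18 of 20 genes higher in both cases. The median against control was -1.21 for hairpin 1 and -0.51 for hairpin 2, which share the control libraries.

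Among the chemokines and cytokines, CXCL3 had 0.278, 0.149 and 0.0563 FPKM with hairpin 1 and 1.52, 1.39 and 0.997 with hairpin 2, against 2.95 to 3.66 in the control (difference 0.98, limma adjusted p 0.0659). TNF, the founding cytokine of its family, had 1.91, 1.05 and 1.08 with hairpin 1 and 5.08, 4.62 and 3.15 with hairpin 2, against 7.81 to 15.4 in the control (difference 1.17, limma adjusted p 0.203). The 3 groups were apart in both genes. CCL2, CXCL8, CSF1 and CCL20, named after their values were seen, had differences of 1.43, 1.12, 0.82 and 0.66, none past the threshold. Of the pathway's own components, the subunit RELB differed by 0.56, NFKB1 by 0.30 and NFKB2 by 0.05, and the inhibitor NFKBIA by 0.14, and none passed. NFKBIA had 30.7, 30.2 and 31.2 FPKM with hairpin 1 and 32.3, 36.0 and 33.5 with hairpin 2, against 42.8 to 50.6 in the control. LIF (-0.08) and TNIP1 (-0.14) were the 2 members with a negative sign. Without replicate 3 of hairpin 1, NFKB1 was at 0.10, NFKB2 at 0.22, LIF at -0.55 and TNIP1 at 0.10.

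**Figure D3:**
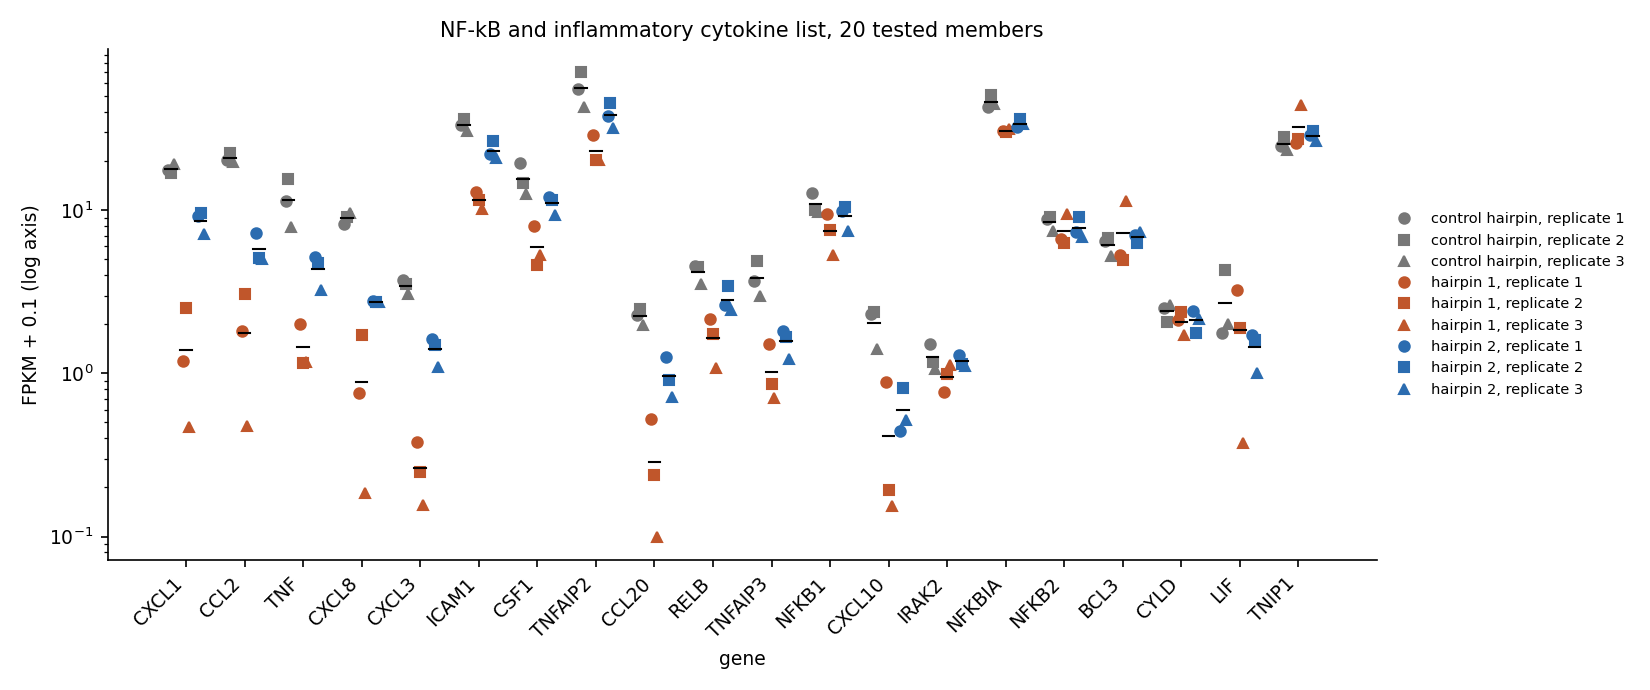
FPKM plus 0.1 on a log axis for the 20 tested members of the NF-kB and inflammatory cytokine list in each of the 9 libraries, ordered by the hairpin 2 minus hairpin 1 difference; colours mark the group, symbols the replicate and black bars the mean of 3 libraries. From CXCL1 to RELB the groups run control, hairpin 2, hairpin 1 from high to low, and from CYLD to TNIP1 they overlap.

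UTP18 (chromosome 17, 51260546 to 51297936), a subunit of the small-subunit processome that makes 18S ribosomal RNA, had 28.0, 29.8 and 26.9 FPKM in the control, 22.5, 19.9 and 17.5 with hairpin 2 and 10.3, 10.6 and 8.28 with hairpin 1. The groups did not overlap. The difference between hairpins was 0.97 (SE 0.13, interval 0.67 to 1.27; limma adjusted p 0.0347), called in 1 of the 9 fits that left out 1 library. It was the only call among 35 tested genes of MYC and ribosome biogenesis. Of these, 33 were higher with hairpin 2, with a median difference of 0.32. Without replicate 3 of hairpin 1 the median was 0.10, with 24 of 35 higher. BYSL, another processome factor, had 24.5, 19.0 and 15.5 FPKM with hairpin 1 and 26.7, 34.5 and 24.9 with hairpin 2 (difference 0.53, limma adjusted p 0.525).

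The medians of several other lists depended on that library. The median of mitosis and G2/M genes was 0.23 with 34 of 35 genes higher with hairpin 2, and -0.04 without replicate 3 of hairpin 1. For hypoxia and glycolysis the median was -0.23, with 33 of 35 genes lower, and 0.11 without it. Cytosolic ribosomal protein genes had a median of -0.22 with 62 of 63 lower, and -0.06 without it. No member of these 3 lists was called. The median changed sign without this library in 10 of the 40 lists with at least 5 tested members.

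**Figure D4:**
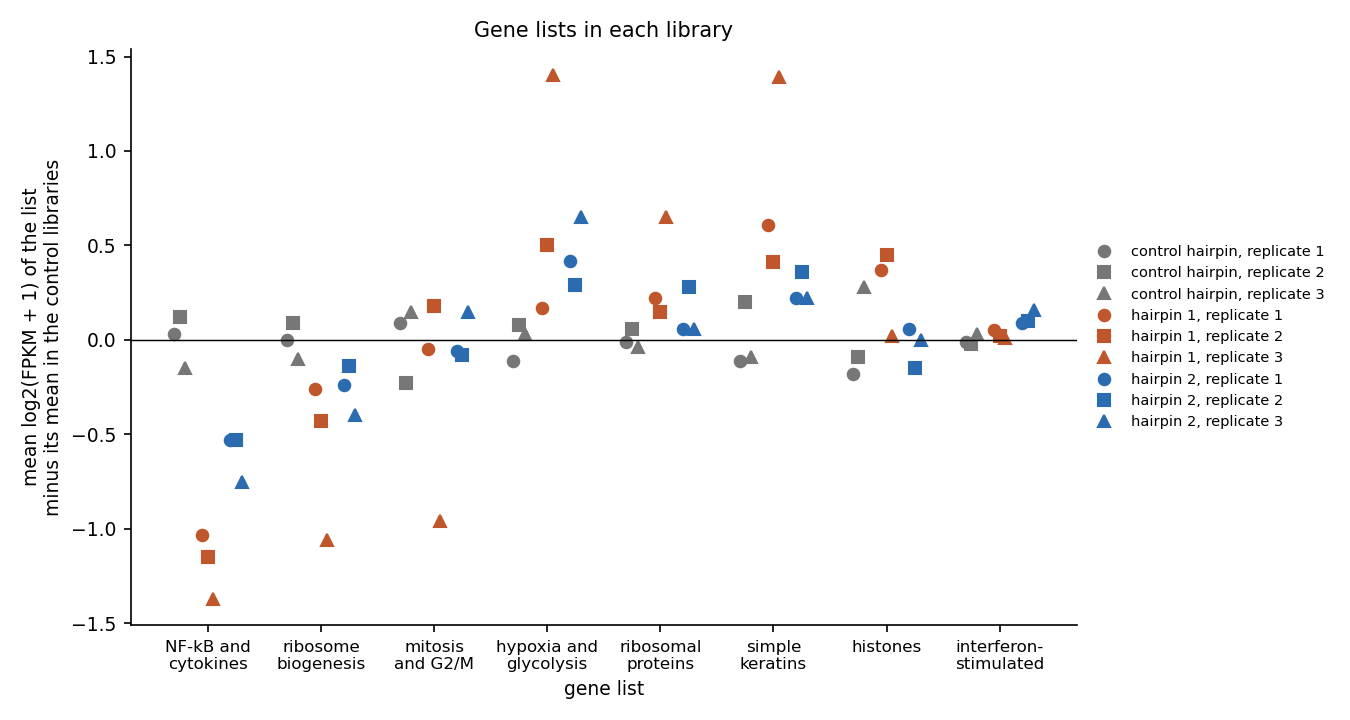
Mean log2(FPKM + 1) of 8 gene lists in each of the 9 libraries, minus the list's mean over the control libraries; colours mark the group and symbols the replicate. Hairpin 1 replicate 3 (red-brown triangle) is at 1.40 for hypoxia and glycolysis and -0.96 for mitosis, apart from the others, while for the NF-kB list all 3 hairpin 1 libraries, at -1.03, -1.15 and -1.37, lie below the 3 hairpin 2 libraries, at -0.53, -0.53 and -0.75.

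Keratins are the intermediate filaments of epithelia. The simple epithelial keratins KRT7, KRT8, KRT18 and KRT19 were all lower with hairpin 2, with a median of -0.58, and -0.23 without replicate 3 of hairpin 1. None was called. KRT18 had 110, 118 and 222 FPKM with hairpin 1 and 82.2, 98.3 and 93.0 with hairpin 2, against 70.1 to 83.9 in the control (difference -0.64, limma adjusted p 0.552; -0.32 without that library). Of the 10 basal and stress keratins, 7 were higher and 3 lower with hairpin 2, with a median of 0.16, 0.11 without that library, and no call. The lower ones were KRT5 (-0.34), KRT15 (-0.38, and -0.03 without that library) and the hair keratin KRT83 (-0.32). KRT14, a basal keratin and the partner of KRT5, had 34.8, 22.5 and 23.5 FPKM with hairpin 1 and 54.7, 59.9 and 56.4 with hairpin 2, against 33.3 to 45.8 in the control (difference 1.08, limma adjusted p 0.0801). Its hairpin groups did not overlap. Of the 13 basal-line markers, which include the simple keratins, 9 were lower and 4 higher with hairpin 2, with a median of -0.25, -0.18 without that library, and no call. At an unadjusted p under 0.05, 4 were lower and 2 higher, against 3.66% and 4.34% of all genes. The marker with the smallest p, FOXC1, a basal-like transcription factor, had 4.97, 5.88 and 4.39 with hairpin 1 and 10.4, 8.33 and 7.74 with hairpin 2 (difference 0.69, limma adjusted p 0.213), and its control, 5.20 to 6.20, was near hairpin 1.

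Replication-dependent histone genes, most of whose transcripts lack a poly(A) tail, were lower with hairpin 2 in 21 of 23, with a median of -0.31, and -0.48 without replicate 3 of hairpin 1. Of these, 5 were lower at an unadjusted p under 0.05, against 3.66% of all genes, and 0 higher, against 4.34%, and 0 were called, against 0.0926%. H3C10 had 2.89, 3.88 and 3.59 FPKM with hairpin 1 and 1.31, 1.68 and 2.19 with hairpin 2, with the control at 1.85 to 3.02 (difference -0.71, limma adjusted p 0.327). H1-2, a linker histone, had 37.5, 47.1 and 59.1 with hairpin 1 and 37.2, 22.8 and 31.7 with hairpin 2 (difference -0.64, limma adjusted p 0.50). Among matrix genes, the protease MMP2 had 1.32, 1.35 and 0.969 with hairpin 1, 3.81, 3.31 and 3.26 with hairpin 2 and 1.24 to 1.97 in the control (difference 1.01, limma adjusted p 0.054).

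Lists that bear on the cell's response to hairpins held no call, and with 0.0926% of all genes called nothing is read from that. Of 18 tested interferon-stimulated genes and 13 genes of double-stranded RNA sensing, 0 differed at an unadjusted p under 0.05 in either direction by limma, against 4.34% higher and 3.66% lower of all genes, with medians of 0.13 and 0.14, and 0.05 and -0.05 without replicate 3 of hairpin 1. Of 14 genes of small RNA processing and Argonaute, 1 was higher at an unadjusted p under 0.05, near the 4.34% of all genes. It was AGO2, the Argonaute that cleaves targets, with 6.97, 6.05 and 3.50 FPKM with hairpin 1 and 8.03, 7.65 and 7.32 with hairpin 2 (difference 0.45, limma adjusted p 0.614; 0.21 without that library). Of the 45 lists, 5 held a called gene: NF-kB, NRF2 and aldo-keto reductases, MYC and ribosome biogenesis, TGF-beta and ID, and cancer-testis genes.

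**Figure D5:**
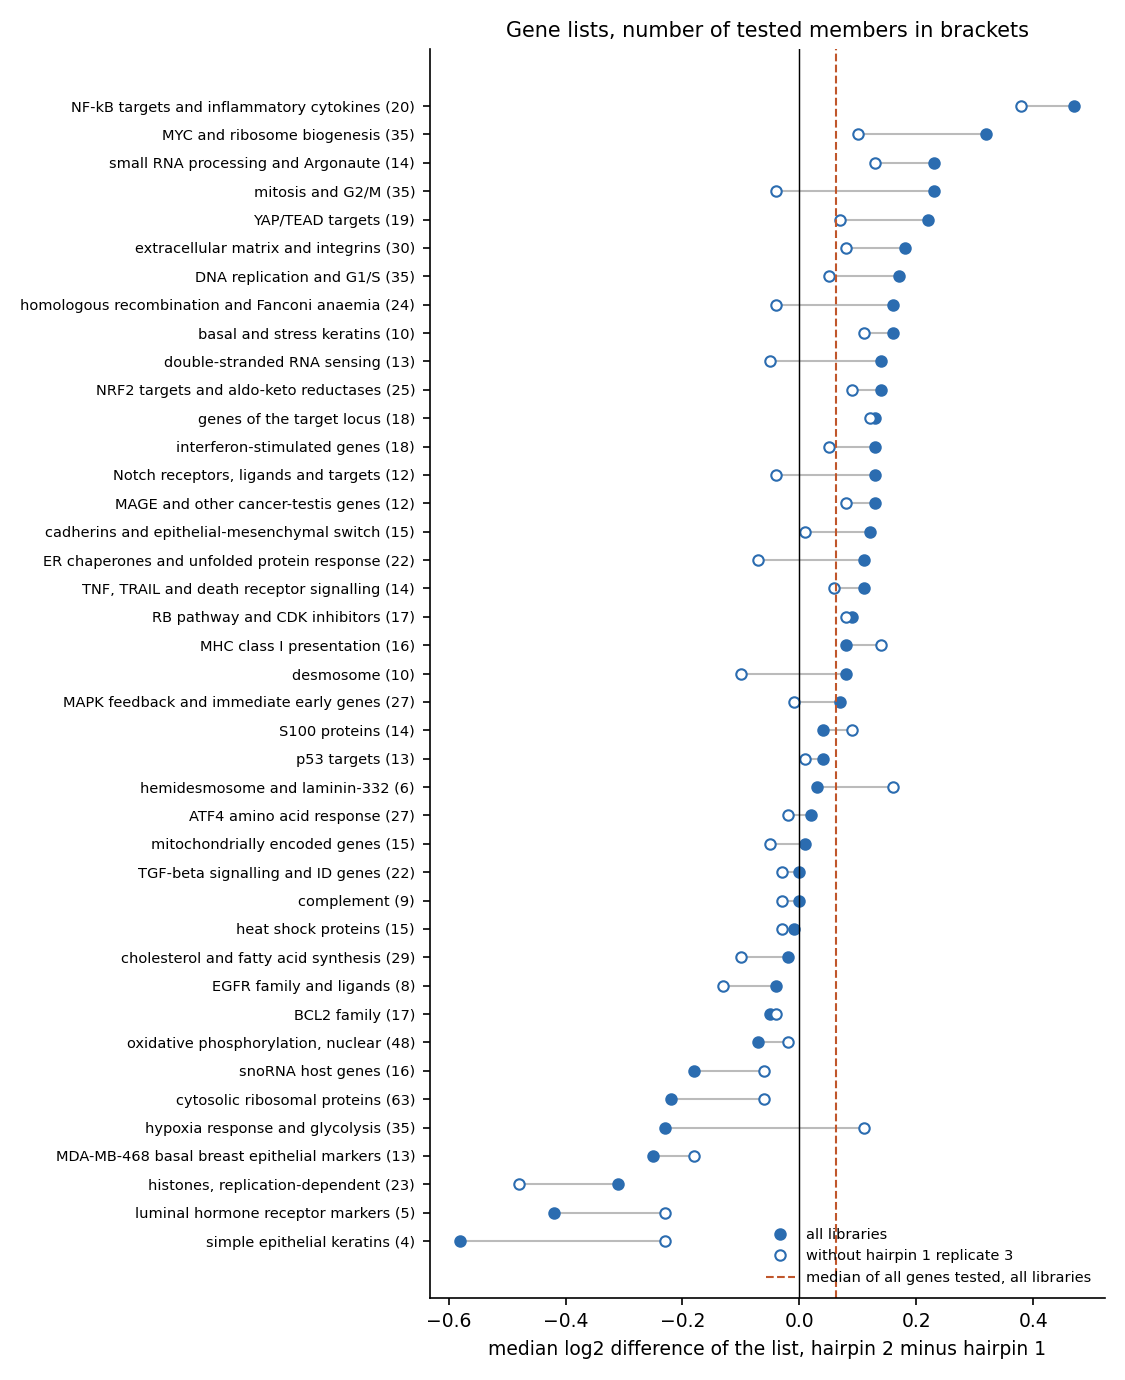
Median log2 difference, hairpin 2 minus hairpin 1, of each list with at least 4 tested members, with all libraries (filled) and without hairpin 1 replicate 3 (open); the dashed line is the median of all genes tested, 0.063. The NF-kB list is highest in both settings, at 0.47 and 0.38, while the mitosis and hypoxia lists cross 0. The lists were chosen with earlier results of these data known.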

How the data were processed

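RNA-seq libraries of MDA-MB-468 lines were analysed from FPKM values per gene that the authors deposited; per the labels' protocols, total RNA (Trizol) entered a VAHTS Universal V6 library kit. The submitters' processing notes list Bowtie2 2.2.3, HTSeq 0.6.0, HISAT2 2.1.0 and the build hg38, without roles. Neither a strand setting nor an annotation release is given in the sources used here. The deposited table held 31005 lines, 1 of them a stray fragment that was left out. A gene name table gave symbols to 30883 genes. Values step by what 1 read is worth, and whole reads were recovered for 100% of genes within 1e-05 reads; they served for read numbers and 1 alternative test.

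Differences were tested two-sided with limma 3.58.1 (R 4.3.3) on log2(FPKM + 1), with a pseudocount of 1, which understates differences of low genes, group means over all 9 libraries, variances trended on level, and Benjamini-Hochberg adjustment over 11875 genes at 0.05. The fit was checked on simulated data with independent noise for each gene. Those data had no GC trends and no outlying library, so the check does not cover either. Intervals are 95% with 10 degrees of freedom. GC contents, lengths and shared transcript words came from GENCODE release 29; start regions from RefSeq. Alternatives were another pseudocount, filter, scaling, variance or weighting, a replicate block, removal of GC trends, voom on reads, the 6 hairpin libraries alone, and leaving out each library; 3 kinds were added after the data were seen.

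Named genes were the target, up to 15 called genes a direction filled to 10 by smallest p, up to 3 members of a list by smallest p, and genes called in every fit that left out 1 library; exceptions are stated. The members and lists were chosen with earlier results of these data known. Python 3.11.15, numpy 2.4.6, pandas 2.3.3, scipy 1.17.1 and matplotlib 3.10.9 were used.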

Additional observations from a re-analysis of the deposited data

How the results depend on the processing

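Differences between hairpins were called in 11 genes, 10 higher and 1 lower with hairpin 2, and the count moved with several settings. It was 7 and 0 at a pseudocount of 0.1, 2 and 0 (MAGEB2 and ID4) in the 6 hairpin libraries alone, 0 and 0 for a log2 difference beyond 1 (12 genes at an unadjusted p under 0.05), and 4 and 0 with voom on recovered reads (MAGEB2, PRPF38A, AKR1C2 and AKR1C1). It was 95 and 53 (148 in all) with library weights, 91 and 58 (149) with weights in the 6 libraries, 35 and 3 (38) after removal of GC trends, and 31 and 4 (35) after that removal without replicate 3 of hairpin 1. In the 6 hairpin libraries without that replicate, 2 were lower, and 4 with GC trends also removed. Same-numbered libraries deviated with correlations of 0.133, -0.446 and -0.241, and not every library correlated best with its own number. These correlations were taken with the GC trends in place, so they cannot tell whether equal numbers share a batch. With a replicate block the counts were 4 and 0 in 9 libraries, 0 and 0 in 6 (481 at an unadjusted p under 0.05), and 29 and 4 (33) with GC trends removed. Leaving out 1 library gave 3 to 17 genes, 3 to 13 higher and 0 to 4 lower; the fewest came without replicate 3 of hairpin 2 and the most without replicate 3 of hairpin 1. Filters, other scalings and robust variances gave counts within 1.5 times, though without a filter only 5 of the 11 genes were among the 13 called. The target's difference was 0.23 to 0.53 and never called. MAGEB2 was called in 26 and PRPF38A in 25 of 27 alternatives, leaving aside the required difference of 1. Non-overlapping genes numbered 1426, and 2090 after removal of GC trends.

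Of 805 tested genes of the lists, 216 changed sign without replicate 3 of hairpin 1, none of them called. Among the up to 3 members of each list followed through all settings, 7 uncalled ones changed sign in at least 1. Over fits leaving out 1 library, ITGA6 ran from -0.03 to 0.70, CD151 from -0.19 to 0.03 (0.01 in the 6 libraries without replicate 3 of hairpin 1), DSP from -0.05 to 0.72, MT-CYB from -0.05 to 0.36 (-0.04 with GC trends removed), MT2A from -0.32 to 0.05 and CD14 from -0.02 to 0.32; MT-ND4L was at -0.13 with library weights. The cause was not tested for any of these. Genes with few reads, such as the Y RNA, are limited by counting error.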
